A study of Mus musculus with 6 samples.

Results

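The clustered protocadherins are cell surface adhesion proteins encoded by the alpha, beta and gamma gene clusters, which lie one after the other on mouse chromosome 18. They were taken here as every gene in the count tables whose GENCODE M21 symbol is that of a clustered protocadherin, which gave 23 of the 23154 genes. These were 21 beta genes (Pcdhb2 to Pcdhb22), 1 alpha gene ID and 1 C-type gamma gene, Pcdhgc4. GENCODE M21 lists 58 IDs with such symbols, and the other 35, among them most of the alpha and gamma genes, were not analysed here. RNA-seq was performed on C2C12 cells, an established mouse myoblast line whose cells fuse into myotubes. The cells of the HA-NUR77 group carried the doxycycline-inducible construct pINDUCER20b-HA-NUR77, which encodes HA-tagged NUR77, the orphan nuclear receptor also known as Nr4a1. The cells of the GFP group carried pINDUCER20b-GFP. Both groups received doxycycline at 1 µg/mL for 18 hours, added 24 hours after seeding, so the GFP group also controls for the drug, and each group had 3 libraries from separate dishes. The labels name 1 stable line per construct and do not say whether it is a clone, so the line and the construct cannot be told apart.

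Clustered protocadherins bind like to like between neighbouring cell membranes, and neurons use different combinations of them as a surface identity that lets branches of one cell recognise and avoid each other. Each alpha or gamma gene supplies its own first exon, with its own promoter, which is spliced to constant exons shared by its cluster, whereas each beta gene is a single exon that encodes a whole protein without the shared cytoplasmic part. In neurons the promoters are chosen through CTCF and cohesin, which fold the locus so that promoters meet distant enhancers, and DNA methylation keeps the others silent. The proteins are best known from the nervous system. No separate function is given here to single beta genes, since such roles are not well established.

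Totals ran from 13906096 to 22821446 counts per library, of which 9171 to 18626 fell on the 23 clustered protocadherins and 1750 to 3443 on the beta genes. The transcript of Nr4a1 averaged 22.5 ± 3.03 CPM (per-million counts after TMM scaling for library size) in HA-NUR77 and 20.4 ± 7.43 in GFP (SD, n = 3 each), with an edgeR adjusted p of 0.698, so it does not check the labels. Of 10 myoblast genes all were tested, 1 was higher and 1, Myf6, was lower but passed the filter only through GFP, and Myod1, the myogenic master regulator, averaged 119 ± 6.18 CPM in HA-NUR77 and 91.6 ± 17.9 CPM in GFP. Of 13 neuronal genes 7 were tested, 4 were higher and 0 lower (0 lower also at an unadjusted p and by DESeq2 and limma-voom). Of the 4, Nefl was at the filter level in 2 of 3 GFP libraries. Without library HA-NUR77 1 or library GFP 1, 2 of the 7 were higher, where 5.28% and 5.07% of all tested genes were higher. Without library HA-NUR77 2 or library GFP 2, 3 of the 7 were higher, where 9.93% and 7.27% of all tested genes were higher. Rbfox3 and Elavl4, which mark neurons, had no read in any library. The neuronal genes summed to 232 to 285 CPM in HA-NUR77 and 189 to 232 CPM in GFP, and the myoblast genes to 6330 to 7071 CPM in HA-NUR77 and 4882 to 6068 CPM in GFP. Of 7 fibroblast genes 6 were tested, 1 (Dpt, which passed the filter only through HA-NUR77) was higher and 4 lower, with sums of 5426 to 6385 CPM in HA-NUR77 and 8301 to 9961 CPM in GFP. Glial and Schwann cell genes summed to 1.15 to 2.02 CPM in HA-NUR77 and 1.17 to 2.55 CPM in GFP, with no read of Sox10 or Aqp4 and the 1 tested gene not past any of these tests. Endothelial genes summed to 1.40 to 2.38 CPM in HA-NUR77 and 0.541 to 1.96 CPM in GFP, and macrophage genes to 2.37 to 3.46 CPM in HA-NUR77 and 1.48 to 2.71 CPM in GFP. Of the endothelial genes 2 were tested and 0 changed by edgeR, DESeq2 or limma-voom, 1 being higher at an unadjusted p under 0.05. Of the macrophage genes 2 were tested, 1 (Csf1r, at the filter level in 1 of 3 GFP libraries) was higher and 0 lower. Without library HA-NUR77 1, HA-NUR77 2, GFP 1 or GFP 3, 0 macrophage genes were higher. Of all tested genes 5.28%, 9.93%, 5.07% and 11.8% were higher in those fits, in the same order. Over all tested genes 12.4% were higher and 13.2% lower by edgeR. With the replicate number as a block, 5 myoblast genes were higher and 3 lower. Of the neuronal genes 5 were then higher and 0 lower, and of the endothelial genes 1 was higher. In that fit 23.5% of all tested genes were higher and 24.6% lower. Myod1 had an edgeR adjusted p of 0.0754, and of 0.00582 with the block. The part of these markers in the protocadherin differences was not tested.

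Clustered protocadherin transcripts were lower in HA-NUR77 cells than in GFP cells across the beta cluster and at Pcdhgc4. With no filter on low counts, all 23 members had a fitted fold change below 0 on the log2 scale, and 16 of the 23 fell by edgeR's quasi-likelihood test at an adjusted p under 0.05, while 0 rose. With no fold change above 0, none was higher at an unadjusted p either, nor by DESeq2 or limma-voom on the tested members. In the same fit 8.19% of all 19879 genes with a read fell and 7.66% rose, and 49.1% had a fold change below 0. In the 16 members that fell, every HA-NUR77 library lay below every GFP library, and in the other 7 the groups overlapped. With the filter used for the fold changes given here, 20 members were tested, 18 of which passed through both groups, while Pcdhb2 and Pcdhb3 passed only through their level in GFP. The same 16 fell with the filter, against a background of 13.2% of tested genes lower and 12.4% higher, and groups without overlap, HA-NUR77 below GFP, were found for 22.5% of tested genes. DESeq2 and limma-voom called the same 16 lower, where they called 15% and 13.4% of tested genes lower. In bulk RNA, fewer cells that express a gene and less of its RNA per cell cannot be told apart.

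**Figure D1:**
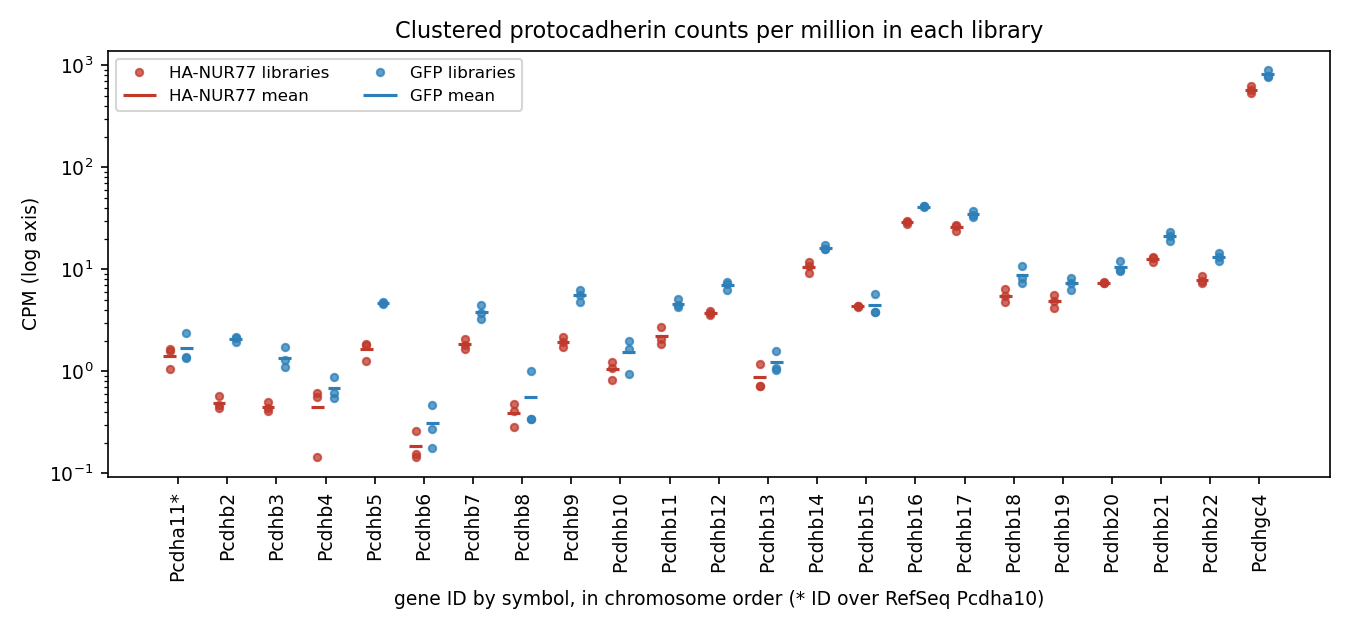
CPM on a log axis (vertical) for each of the 23 clustered protocadherins in chromosome order (horizontal), with 1 point per library, HA-NUR77 and GFP. Pcdhgc4 lies far above the others, between 531 and 621 CPM in HA-NUR77 and between 765 and 898 CPM in GFP, and among the beta genes Pcdhb16 and Pcdhb17 are highest.

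The beta genes as a whole gave 128, 116 and 126 CPM in HA-NUR77 libraries 1 to 3, against 204, 185 and 183 CPM in GFP libraries 1 to 3. The sums averaged 123 ± 6.02 CPM in HA-NUR77 and 191 ± 11.6 CPM in GFP (SD, n = 3 each), a ratio of 0.646. No HA-NUR77 library reached the lowest GFP library. Of the 18 beta genes tested, 15 fell, and the 3 tested beta genes that did not pass were Pcdhb10, Pcdhb13 and Pcdhb15. The median fitted log2 fold change was −0.71 over the tested beta genes and 0.0077 over all tested genes, whose middle 50% ran from −0.24 to 0.22. The 15 and the median include Pcdhb2 and Pcdhb3, which passed the filter only through GFP, and leave out Pcdhb4, Pcdhb6 and Pcdhb8. With no filter 15 of all 21 beta genes fell. Of the 18 clustered protocadherins that passed through both groups, 14 fell.

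Pcdhb2 and Pcdhb3, the first beta genes found, had few reads and fell, and both passed the filter only through their level in GFP, so the size of these falls is not ranked against other genes. Pcdhb2 had 9, 10 and 8 reads in HA-NUR77 libraries 1 to 3, against 33, 31 and 32 in GFP libraries 1 to 3. That is 0.492 ± 0.0727 CPM in HA-NUR77 and 2.08 ± 0.111 CPM in GFP (SD, n = 3 each), a 4.26-fold fall with a log2 fold change of −2.09 ± 0.24 (SE) and an edgeR adjusted p of 0.00144. Its HA-NUR77 libraries held at most 10 reads each, and the groups were far apart. Pcdhb3, its neighbour, had 8, 10 and 7 reads in HA-NUR77, against 29, 16 and 19 in GFP, without overlap. Pcdhb3 had a fitted log2 change of −1.61 (SE 0.30) at an edgeR adjusted p of 0.00918.

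Pcdhb5 and Pcdhb9 fell almost 3-fold. Pcdhb5 gave 1.86, 1.27 and 1.80 CPM in the HA-NUR77 libraries and 4.80, 4.67 and 4.60 CPM in the GFP libraries, a 2.88-fold fall (fitted log2 change −1.53, SE 0.20, edgeR adjusted p = 0.00218). Pcdhb9 gave 2.17, 1.75 and 1.94 CPM in the HA-NUR77 libraries and 6.29, 5.63 and 4.80 CPM in the GFP libraries, a 2.86-fold fall (fitted log2 change −1.52, SE 0.18, edgeR adjusted p = 0.00168). For both genes each GFP library was more than 2 times as high as any HA-NUR77 library. Their read numbers were 25 to 42 per HA-NUR77 library and 68 to 106 per GFP library.

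Pcdhb7, Pcdhb11 and Pcdhb12 fell about 2-fold in HA-NUR77. Pcdhb7 gave 1.81, 2.1 and 1.65 CPM in the HA-NUR77 libraries and 4.45, 3.71 and 3.25 CPM in the GFP libraries, a fitted log2 change of −1.03 (SE 0.20) at an edgeR adjusted p of 0.0106. Pcdhb11 gave 2.07, 1.88 and 2.73 CPM in the HA-NUR77 libraries and 4.45, 5.08 and 4.26 CPM in the GFP libraries, a fitted log2 change of −1.06 (SE 0.20) at an edgeR adjusted p of 0.00864. Pcdhb12 gave 3.72, 3.58 and 3.95 CPM in the HA-NUR77 libraries and 7.24, 7.55 and 6.23 CPM in the GFP libraries, a fitted log2 change of −0.90 (SE 0.14) at an edgeR adjusted p of 0.00484. None of the 3 had overlapping groups. The value of Pcdhb12 is uncertain in origin, because the gene model Gm37446 lies antisense over it, the strand setting used in counting was not stated, and 64.2% of its 50-base stretches also occur in other annotated genes.

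The other 5 genes of this stretch gave no call. Pcdhb10 averaged 1.05 ± 0.207 CPM in HA-NUR77 and 1.53 ± 0.534 CPM in GFP, and Pcdhb13 averaged 0.874 ± 0.264 CPM in HA-NUR77 and 1.24 ± 0.316 CPM in GFP (SD, n = 3 each). Their edgeR adjusted p-values were 0.237 and 0.296, their groups overlapped, and the 95% intervals of their log2 fold changes ran from −1.33 to 0.20 and from −1.23 to 0.27. Those intervals include both no change and falls of more than 2-fold. Pcdhb4, Pcdhb6 and Pcdhb8 stayed under the filter, with 2 to 13 reads per library in HA-NUR77 and 3 to 17 in GFP. Their ratios after scaling for depth, HA-NUR77 over GFP, were 0.699, 0.651 and 0.706, with exact binomial 95% intervals of 0.403 to 1.21, 0.268 to 1.54 and 0.387 to 1.28 that cover counting error only. A difference in these 3 genes was not detectable at this depth.

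Pcdhb16 and Pcdhb17 were the most abundant beta genes in both groups and fell by less than most. Pcdhb16 gave 29.8, 27.8 and 28.9 CPM in the HA-NUR77 libraries and 41.5, 41.1 and 41.4 CPM in the GFP libraries, a 1.43-fold fall (fitted log2 change −0.52, SE 0.07, edgeR adjusted p = 0.00218). Pcdhb17 gave 26.5, 23.8 and 27.1 CPM in the HA-NUR77 libraries and 37.0, 32.9 and 33.8 CPM in the GFP libraries, a 1.34-fold fall (fitted log2 change −0.42, SE 0.09, edgeR adjusted p = 0.0122). The libraries of each group lay close together, and the groups did not overlap. With 378 to 699 reads per library, these are the beta values with the least counting error.

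Pcdhb14, Pcdhb21 and Pcdhb22 fell 1.5-fold to 1.7-fold. Pcdhb14 gave 11.8, 9.13 and 10.9 CPM in the HA-NUR77 libraries and 17.2, 15.8 and 15.7 CPM in the GFP libraries, a fitted log2 change of −0.62 (SE 0.12) at an edgeR adjusted p of 0.0102. Pcdhb21 gave 13.2, 12.8 and 11.8 CPM in the HA-NUR77 libraries and 23, 21.4 and 18.9 CPM in the GFP libraries, a fitted log2 change of −0.74 (SE 0.10) at an edgeR adjusted p of 0.00309. Pcdhb22 gave 8.69, 7.29 and 7.68 CPM in the HA-NUR77 libraries and 14.4, 13.1 and 12.0 CPM in the GFP libraries, a fitted log2 change of −0.74 (SE 0.12) at an edgeR adjusted p of 0.00568. The groups of these 3 genes did not overlap, and with offsets for length and GC content the log2 change of Pcdhb14 was −0.36. The models of Pcdhb21 and Pcdhb22 overlap on the same strand over 9.67% and 6.88% of their exon bases, so reads there cannot be assigned to one of them.

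Pcdhb18, Pcdhb19 and Pcdhb20 also fell, with calls that single libraries can end. Pcdhb18 averaged 5.53 ± 0.820 CPM in HA-NUR77 and 8.74 ± 1.75 CPM in GFP, Pcdhb19 averaged 4.89 ± 0.763 CPM in HA-NUR77 and 7.31 ± 1.03 CPM in GFP, and Pcdhb20 averaged 7.41 ± 0.0868 CPM in HA-NUR77 and 10.6 ± 1.29 CPM in GFP (SD, n = 3 each). Their log2 fold changes were −0.67 ± 0.19, −0.59 ± 0.17 and −0.51 ± 0.12 (SE), with edgeR adjusted p-values of 0.0340, 0.0414 and 0.0218. No groups overlapped, and GFP library 1 was the highest for each. The edgeR adjusted p of Pcdhb18 was 0.0992 without library HA-NUR77 1, 0.0881 without library HA-NUR77 2, 0.117 without library GFP 1 and 0.0530 without library GFP 3. That of Pcdhb19 was 0.112, 0.106, 0.144 and 0.0776 without the same 4 libraries in turn, and that of Pcdhb20 was 0.0717, 0.0505, 0.0546 and 0.0770 without the 3 HA-NUR77 libraries in turn and without library GFP 1.

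Pcdhb15 did not pass the test. It gave 4.24, 4.41 and 4.38 CPM in the HA-NUR77 libraries and 3.86, 3.85 and 5.75 CPM in the GFP libraries, so 2 of 3 GFP libraries lay below every HA-NUR77 library. The log2 fold change was −0.044 ± 0.19 (SE), with a 95% interval of −0.49 to 0.41 and an edgeR adjusted p of 0.884, and it was 0.17 without library GFP 3. The interval includes the fold change of Pcdhb17 and not that of Pcdhb16, and a difference between Pcdhb15 and its neighbours was not tested. In the order of levels per kilobase (kb) of unshared exon, Pcdhb15 ranked 5 among the 21 beta genes in HA-NUR77 and 10 in GFP.

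**Figure D2:**
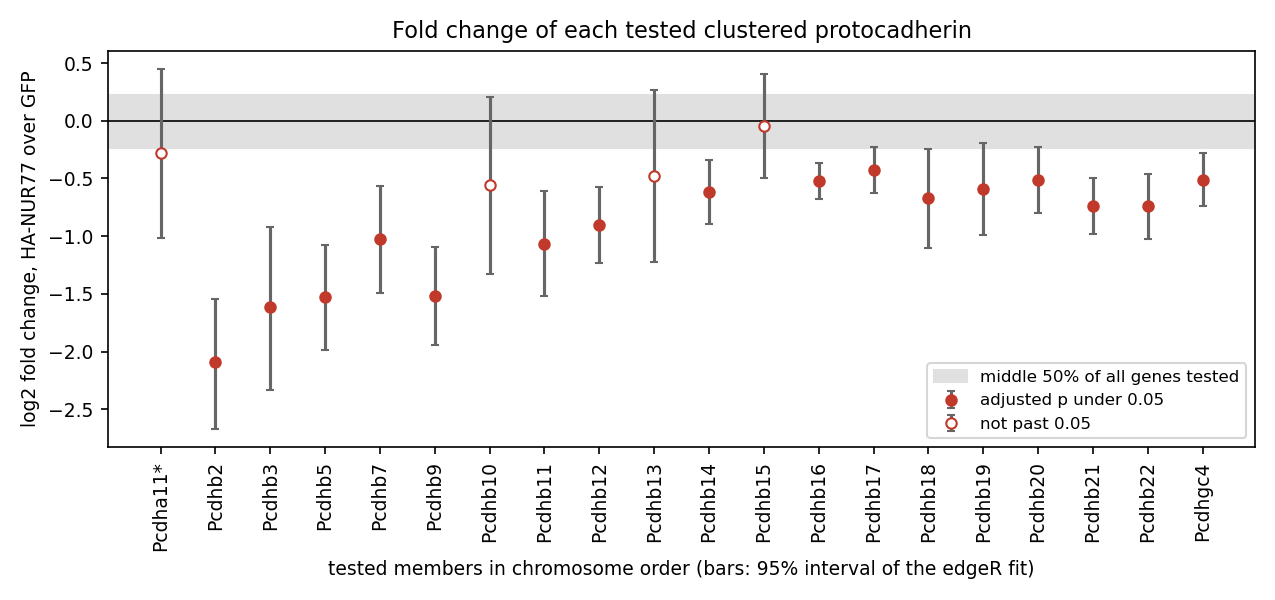
Fitted log2 fold change, HA-NUR77 over GFP, for each of the 20 tested clustered protocadherins in chromosome order, with bars for the 95% interval. All points lie below 0, from −2.09 for Pcdhb2 to −0.044 for Pcdhb15, and the intervals of Pcdha11, Pcdhb10, Pcdhb13 and Pcdhb15 include 0.

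On the scale of CPM per kb of unshared exon, which allows levels of different genes to be set side by side, the order of the beta genes was much alike in both groups. Pcdhb17 and Pcdhb16 led with 5.54 ± 0.374 and 5.52 ± 0.193 CPM per kb in HA-NUR77, and with 7.42 ± 0.463 and 7.91 ± 0.0341 CPM per kb in GFP (SD, n = 3 each). The ranges of these genes overlapped in either group, so their order is not settled. Pcdhb21 came next with 2.97 ± 0.178 CPM per kb in HA-NUR77 and 4.96 ± 0.490 in GFP, and then Pcdhb20 with 2.08 ± 0.0244 in HA-NUR77 and 2.97 ± 0.362 in GFP. Each of these 2 steps down was larger than the spread between libraries, while most steps among the lower genes were not. Pcdhb6 was lowest, with 0.0498 ± 0.0174 CPM per kb in HA-NUR77 and 0.0822 ± 0.0402 in GFP. Across the 21 beta genes the log2 levels of HA-NUR77 and GFP correlated with Pearson's r = 0.97 and Spearman's rho = 0.95, a description over genes that share libraries and a locus and are not independent.

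Genes farther along the beta cluster tended to have higher levels and smaller falls. Among the 21 beta genes the order on the chromosome correlated with the log2 level per kb at r = 0.70 and rho = 0.73, and with the log2 fold change fitted without a filter at r = 0.59 and rho = 0.44. Over the 16 genes that passed the filter through both groups, the order and the fitted log2 fold change correlated at r = 0.60 and rho = 0.46. The level and the fold change correlated at r = 0.46 and rho = 0.43 over the 18 tested genes, which include Pcdhb2 and Pcdhb3 but not the low Pcdhb4, Pcdhb6 and Pcdhb8. The share of a gene's 50-base stretches found in other genes correlated with the fold change at r = −0.047 and rho = −0.41, and its GC content at r = −0.30 and rho = −0.19. Low levels, the filter and the position are tied together in these genes, and their separate parts were not tested.

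A split of the cluster between Pcdhb13 and Pcdhb14, chosen after the values were seen and given with no test, describes the same pattern. Pcdhb2 to Pcdhb13 summed to 15.3 ± 0.485 CPM in HA-NUR77 and 33.4 ± 3.14 CPM in GFP, a ratio of 0.458. Pcdhb14 to Pcdhb22 summed to 108 ± 5.53 CPM in HA-NUR77 and 157 ± 9.13 CPM in GFP (SD, n = 3 each), a ratio of 0.685. The genes of the first stretch made up 12.3%, 12.7% and 12.3% of beta reads in HA-NUR77 libraries 1 to 3, against 17.7%, 18.4% and 16.4% in GFP libraries 1 to 3. The exact 95% binomial intervals spanned 10.8% to 14% over the HA-NUR77 libraries and 15.0% to 19.9% over the GFP libraries. Because the split was placed from these same values, the gap between the intervals is no test of it. Pcdhb16 and Pcdhb17 together took 44.1%, 44.4% and 44.6% of beta reads in HA-NUR77 and 38.4%, 39.9% and 41.1% in GFP. These shares did not overlap, although the intervals of some libraries met. Intervals on reads cover counting error only, since copies made in amplification are not separate molecules.

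**Figure D3:**
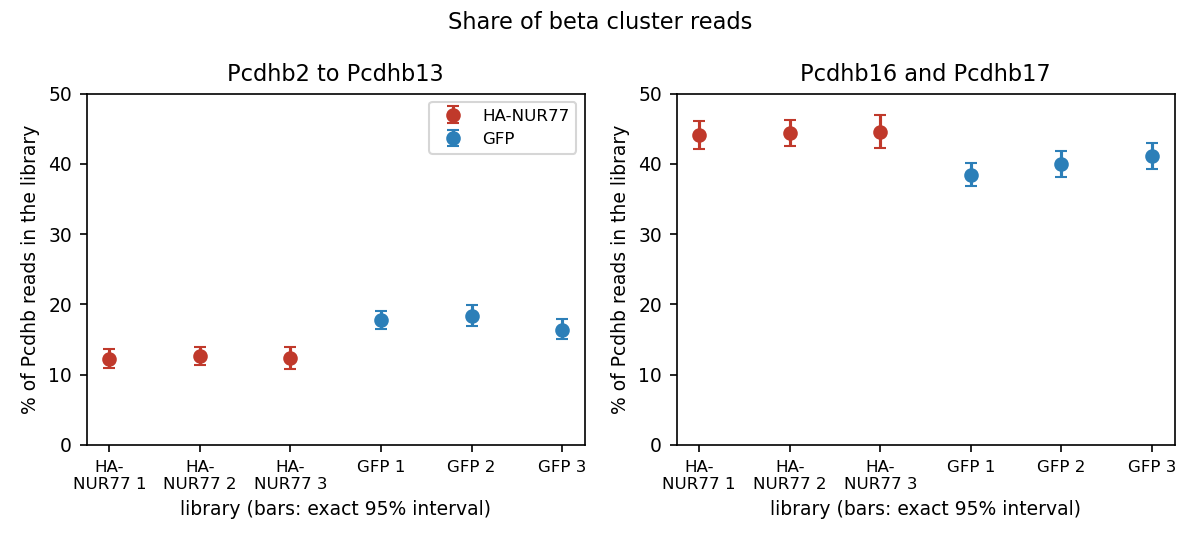
Share of all beta cluster reads, in percent (vertical), taken by Pcdhb2 to Pcdhb13 and by Pcdhb16 with Pcdhb17 in each library (horizontal), with exact 95% binomial intervals as bars. The first set lies at 12.3% to 12.7% in HA-NUR77 and 16.4% to 18.4% in GFP, and the second at 44.1% to 44.6% in HA-NUR77 and 38.4% to 41.1% in GFP.

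Pcdhgc4, a C-type gamma protocadherin, held most of the reads of all members and also fell. It had 11046, 14229 and 7399 reads in HA-NUR77 libraries 1 to 3, against 15143, 11520 and 11310 in GFP libraries 1 to 3. Scaled to depth these were 571, 621 and 531 CPM in HA-NUR77 and 898, 791 and 765 CPM in GFP, with no overlap. The means were 575 ± 45.1 CPM in HA-NUR77 and 818 ± 70.5 CPM in GFP (SD, n = 3 each), a 1.42-fold fall with a log2 fold change of −0.51 ± 0.10 (SE) and an edgeR adjusted p of 0.0106. Without library HA-NUR77 1 the edgeR adjusted p was 0.0505.

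The value of Pcdhgc4 may not belong to its own promoter. In GENCODE M21, 37.9% of its exon bases are shared with other genes, which are the constant exons that all gamma transcripts carry. Pcdhgc4 was the only gamma gene found by its GENCODE M21 symbol among the counted IDs. How the authors' counting treated reads on shared exons, and which other gamma genes their annotation held, were not stated. The count may therefore sum transcripts from several gamma promoters, and it is not comparable with the beta genes even per kb.

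The alpha cluster was represented by 1 ID, ENSMUSG00000007440, named Pcdha11 in GENCODE M21. In RefSeq the nearest start is that of Pcdha10, 117 bases away, so the name is uncertain, and 53.4% of its exon bases are shared, again the constant exons of the cluster. It had 32, 24 and 22 reads in the HA-NUR77 libraries and 40, 20 and 20 in the GFP libraries, which overlapped. It averaged 1.43 ± 0.331 CPM in HA-NUR77 and 1.70 ± 0.583 CPM in GFP (SD, n = 3 each), with a log2 fold change of −0.28 ± 0.32 (SE) and an edgeR adjusted p of 0.529. The 95% interval of −1.02 to 0.45 leaves a change of either sign possible, and the log2 fold change was 0.048 without library GFP 1.

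The genes around the clusters lay on both sides of 0, and few passed the test. The 23 members span 836.671 kb of chromosome 18 (mm10, 37005203 to 37841873, all on the plus strand). Of 38 other genes within 500 kb on either side or between the clusters, 21 were tested, 1 rose, 0 fell and 20 did not pass, and their median log2 fold change was −0.0036, near the 0.0077 of all tested genes. Over all tested genes 12.4% rose and 13.2% fell by edgeR's adjusted p. At an unadjusted p under 0.05, where no background share is given, edgeR had 4 of the 21 neighbours lower and 2 higher. By adjusted p DESeq2 called 1 of them lower and limma-voom 0. With the replicate number as a block, 3 rose and 7 fell, against 23.5% of all tested genes higher and 24.6% lower in that fit. Taf7, which encodes a subunit of the general transcription factor TFIID and lies between the beta and gamma clusters, averaged 3.82 ± 0.252 CPM in HA-NUR77 and 5.19 ± 0.698 CPM in GFP. Its log2 fold change was −0.44 ± 0.16 (SE), with an edgeR adjusted p of 0.0808 and of 0.0452 with the block, and it is named after its values were seen. Ndufa2, a subunit of respiratory complex I, was the gene that rose, with 51.2 ± 3.09 CPM in HA-NUR77 and 42.1 ± 1.93 CPM in GFP (fitted log2 change 0.28, SE 0.07, edgeR adjusted p = 0.0306). Its log2 fold change was −0.026 with offsets for length and GC content, and its edgeR adjusted p was 0.0708 without library HA-NUR77 1, 0.0831 without library HA-NUR77 3, 0.104 without library GFP 1 and 0.0891 without library GFP 2.

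**Figure D4:**
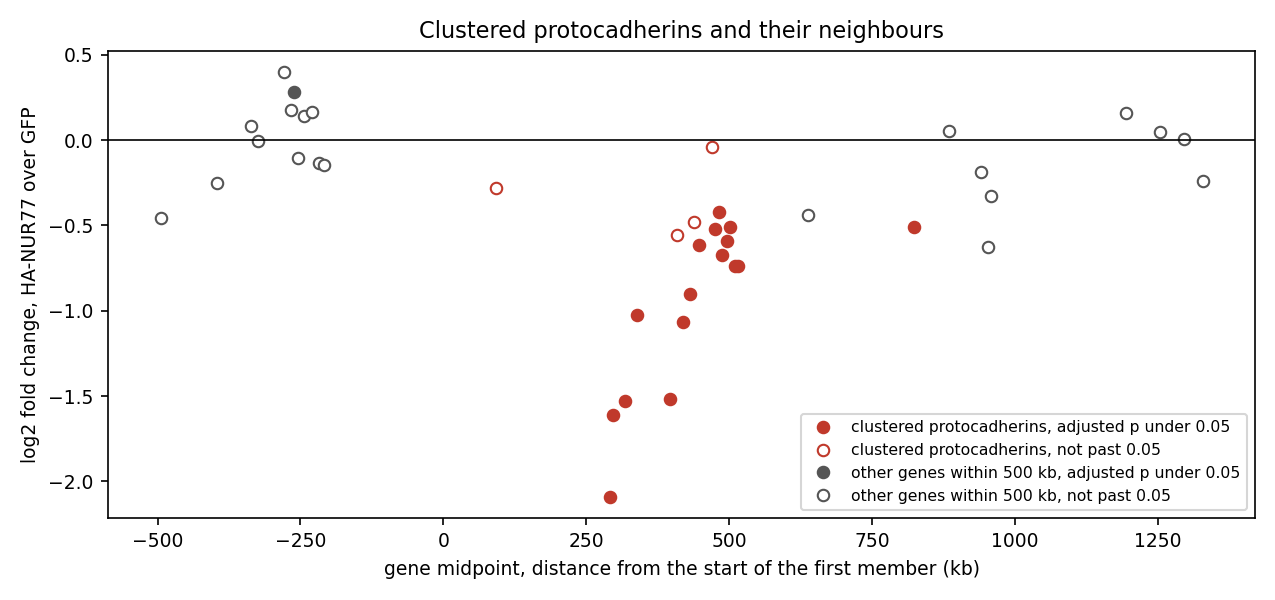
Fitted log2 fold change, HA-NUR77 over GFP (vertical), against the distance of each tested gene's midpoint from the start of the first member in kb (horizontal), for the clustered protocadherins and the 21 tested neighbours. The protocadherins lie below 0, while the neighbours lie on both sides of 0 with a median of −0.0036.

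Genes for the machinery that folds the locus were examined as a list of 15 genes of CTCF and cohesin, all of them tested. Of these 0 rose, 3 fell and 12 did not pass by edgeR, with a median log2 fold change of −0.24. Over all tested genes 13.2% fell. At an unadjusted p under 0.05, 1 was higher and 7 lower, while DESeq2 called 0 higher and 5 lower and limma-voom 0 higher and 3 lower. The share of all tested genes at an unadjusted p is not given here. Ctcf, the DNA-binding factor at the protocadherin promoters, averaged 83.6 ± 4.25 CPM in HA-NUR77 and 85.7 ± 5.94 CPM in GFP (fitted log2 change −0.038, SE 0.08, edgeR adjusted p = 0.737). Nipbl, the cohesin loader, averaged 87.6 ± 19.4 CPM in HA-NUR77 and 174 ± 48.6 CPM in GFP, a 1.99-fold fall (fitted log2 change −0.99, SE 0.24, edgeR adjusted p = 0.0223). Pds5b and Pds5a, regulators of cohesin release, had log2 fold changes of −0.45 ± 0.11 and −0.40 ± 0.12 (SE), with edgeR adjusted p-values of 0.0269 and 0.0463. None of the 15 fell without library HA-NUR77 1, library GFP 1 or library GFP 3, where the edgeR adjusted p of Nipbl was 0.0658, 0.0831 and 0.0526 and that of Pds5b was 0.0806, 0.0925 and 0.0571. Of all tested genes 7.23%, 6.74% and 12.5% fell in those fits, in the same order. Nipbl had an edgeR adjusted p of 0.0949 with no filter, and Pds5a one of 0.522 with offsets for length and GC content. With the replicate number as a block 8 fell and 1 rose, where 24.6% of all tested genes fell and 23.5% rose.

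Among 21 chromatin regulators that include known silencers of the clusters, all tested, 0 rose, 5 fell and 16 did not pass by edgeR, with a median log2 fold change of −0.24. At an unadjusted p under 0.05, 2 were higher and 9 lower, and DESeq2 and limma-voom each called 1 higher and 5 lower. By edgeR's adjusted p 13.2% of all tested genes were lower, and the share at an unadjusted p is not given here. Tet3, an enzyme that oxidises methylated cytosine, averaged 93.4 ± 4.96 CPM in HA-NUR77 and 128 ± 12.2 CPM in GFP (fitted log2 change −0.46, SE 0.09, edgeR adjusted p = 0.00955). Rest, a repressor of neuronal genes, averaged 80.3 ± 3.14 CPM in HA-NUR77 and 103 ± 8.15 CPM in GFP (fitted log2 change −0.36, SE 0.08, edgeR adjusted p = 0.0145). Ehmt1 and Ehmt2, which methylate histone H3 at lysine 9, and Wiz, their zinc finger partner, also fell, with log2 fold changes of −0.28 ± 0.08, −0.21 ± 0.06 and −0.36 ± 0.09 (SE) and edgeR adjusted p-values of 0.0398, 0.0435 and 0.0249. Smchd1, known in mice as a repressor of the clusters, averaged 67.4 ± 14.1 CPM in HA-NUR77 and 85.8 ± 3.49 CPM in GFP (fitted log2 change −0.35, edgeR adjusted p = 0.116, and 0.0152 with the replicate block). Tet3 had an edgeR adjusted p of 0.0768 with offsets for length and GC content, and Rest one of 0.0626 without library HA-NUR77 1. With the block 13 fell and 2 rose, in a fit where 24.6% of all tested genes fell and 23.5% rose. Of the 6 fits that left out 1 library, Wiz was called in 2, and Ehmt1 and Ehmt2 in 1 each, the fits without library GFP 3 and without library HA-NUR77 2. The number that fell was 1 with offsets for length and GC content, 1 without library HA-NUR77 1, 2 without library GFP 1, and 3 without either library HA-NUR77 3 or library GFP 2. Of all tested genes 13%, 7.23%, 6.74%, 9.97% and 9.82% fell in these fits, in the same order.

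The non-clustered protocadherins, relatives outside the 3 clusters that lack their shared exons, were mostly too low to test. Of 12 such genes 11 were in the tables, 4 were tested, 0 rose and 2 fell by edgeR, where 13.2% of all tested genes fell. Pcdh1 and Pcdh12 of this list lie within 500 kb of the clusters and were also counted among the neighbours. At an unadjusted p under 0.05, by DESeq2 or by limma-voom, 0 of the 4 were higher. With no filter 10 were tested and 1 was called higher, where 7.66% of all genes with a read rose. With offsets for length and GC content 1 of the 4 was higher and 1 lower, where 11.6% of all tested genes rose and 13% fell. Pcdh20 had 7, 6 and 6 reads in the HA-NUR77 libraries and 0 in each GFP library, under the filter, and is named after its values were seen. Pcdh7 averaged 66.8 ± 8.47 CPM in HA-NUR77 and 88.5 ± 10.0 CPM in GFP (fitted log2 change −0.40, SE 0.12, edgeR adjusted p = 0.0427). Pcdh18 averaged 9.48 ± 1.64 CPM in HA-NUR77 and 13.9 ± 2.33 CPM in GFP (fitted log2 change −0.55, SE 0.17, edgeR adjusted p = 0.0492). Both calls were near the threshold, and neither was made when libraries were scaled by their totals alone (edgeR adjusted p = 0.0506 and 0.0553). None of the 4 fell without library HA-NUR77 1, library HA-NUR77 3, library GFP 1 or library GFP 2, where the edgeR adjusted p of Pcdh7 was 0.0718, 0.0858, 0.144 and 0.0902, and 1 fell without library HA-NUR77 2, where that of Pcdh7 was 0.0595. Of all tested genes 7.23%, 9.97%, 6.74%, 9.82% and 11.4% fell in those fits, in the same order. With the replicate block 3 fell and 1 rose, against the same 24.6% and 23.5% of all tested genes.

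Genes for proteins that bind, cut or signal from protocadherins were examined as a list of 23, of which 22 were tested, 3 rose, 2 fell and 17 did not pass, with a median log2 fold change of −0.031. Over all tested genes 12.4% rose and 13.2% fell. Cyfip2 is a subunit of the WAVE complex, which promotes actin branching and is recruited by several protocadherins. Cyfip2 averaged 58.5 ± 13.9 CPM in HA-NUR77 and 18.5 ± 6.58 CPM in GFP (fitted log2 change 1.66, SE 0.26, edgeR adjusted p = 0.00520). Brk1, another WAVE subunit, averaged 130 ± 1.91 CPM in HA-NUR77 and 98.2 ± 1.47 CPM in GFP (fitted log2 change 0.41, SE 0.06, edgeR adjusted p = 0.00331). Ret, a receptor tyrosine kinase known to phosphorylate clustered protocadherins, averaged 1.45 ± 0.317 CPM in HA-NUR77 and 0.397 ± 0.139 CPM in GFP (fitted log2 change 1.88, SE 0.35, edgeR adjusted p = 0.00922). Ret was under the filter level in all 3 GFP libraries, with 4, 7 and 7 reads, and passed only through HA-NUR77, where it had 35, 30 and 17 reads, so it was tested only because it is high there. The calls of Cyfip2 and Brk1 were made in each of the 6 fits that left out 1 library. Prkca, a protein kinase C, and Abi2, a further WAVE subunit, fell, with log2 fold changes of −0.42 ± 0.11 and −0.27 ± 0.07 (SE) and edgeR adjusted p-values of 0.0251 and 0.0315. Neither fell without library HA-NUR77 1, library GFP 1 or library GFP 2, where the edgeR adjusted p of Prkca was 0.0671, 0.0781 and 0.0776 and that of Abi2 was 0.0845, 0.102 and 0.0665, and 1 of the list fell without library HA-NUR77 2, library HA-NUR77 3 or library GFP 3. Of all tested genes 7.23%, 6.74%, 9.82%, 11.4%, 9.97% and 12.5% fell in those fits, in the same order. With offsets for length and GC content 0 of the list fell, and 13% of all tested genes did. The edgeR adjusted p was then 0.0525 for Prkca and 0.0727 for Abi2. With the replicate block 7 rose and 5 fell, where 23.5% of all tested genes rose and 24.6% fell.

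**Figure D5:**
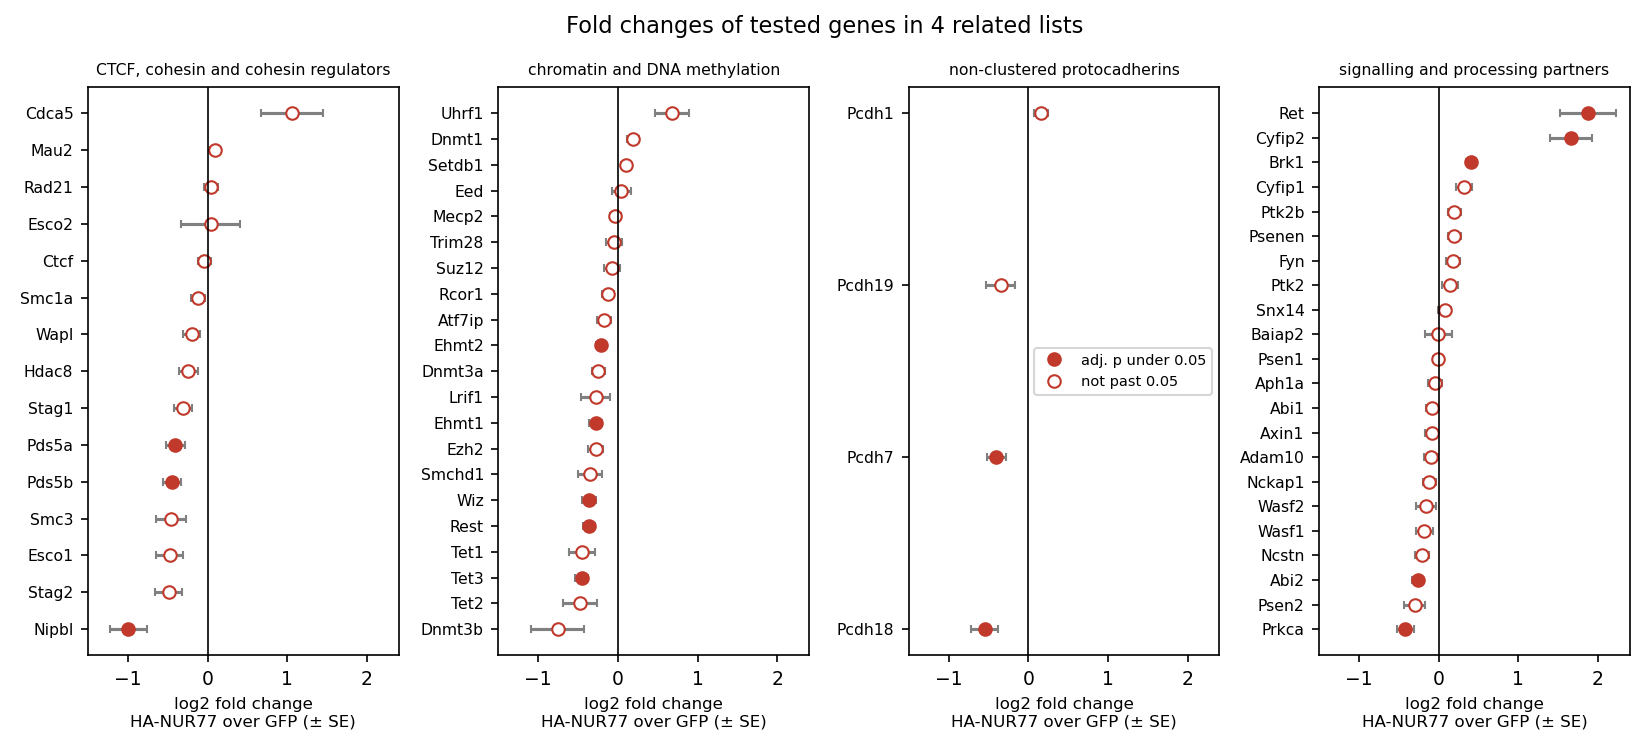
Fitted log2 fold change, HA-NUR77 over GFP (horizontal), with its standard error as bars, for the tested genes (vertical) of the CTCF and cohesin, chromatin regulator, non-clustered protocadherin and partner lists. Cyfip2 at 1.66 and Ret at 1.88 lie farthest to the right, and Nipbl at −0.99 farthest to the left.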

How the data were processed

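The deposited files held raw read counts for each Ensembl gene, with a separate table for every library. TopHat2 2.1, HTSeq, DESeq2 and the build mm10 are named, without roles, per the submitters' processing notes. The annotation release, the strand setting and the treatment of reads on shared exons are not given in the sources used here. Per the labels' protocols, stranded poly(A) libraries took 1000 ng of RNA and 12 cycles of PCR. Symbols came from GENCODE M21 (22872 IDs matched, 282 did not), with exon lengths and overlaps.

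Counts were tested with edgeR 4.0.16 in R 4.3.3, by the quasi-likelihood test with robust fitting, TMM factors and a design of group alone. The test ran on the 12509 genes kept by filterByExpr at a minimum count of 10, with Benjamini-Hochberg adjustment over all of them and a threshold of 0.05. The fits were also run on simulated counts that held no replicate effect, so that run does not bear on the choice of the block. CPM are counts on a per-million scale, divided by the library's counts in tested genes times its TMM factor. Levels per kb use exon bases that no other gene shares on the same strand. SE is the size of the fitted log2 fold change over the square root of its F statistic. Totals ran from 13906096 to 22821446 counts.

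Same-numbered libraries deviated together (correlations of 0.25, 0.55 and 0.47 across genes for numbers 1 to 3). No label states this pairing, so a second fit that blocks on the replicate number is given where it changes a call or a count. Libraries of a group differed by a chi-square per degree of freedom of at least 11.5, more than sampling noise, which alone does not show separate cultures. Each was counted as 1 replicate, a separate dish of the same line. P-values measure the spread between dishes of a line. The 18 alternatives covered scaling, filters, DESeq2 1.42.0, limma-voom (limma 3.58.1), offsets for length and GC, thinned counts, the block and leaving out each library.

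The members and the other lists were chosen with earlier results of these data known. Among the lists of related genes, the genes named are members past the threshold, up to 6 by the smallest adjusted p, and otherwise the most abundant. Ctcf, Smchd1, Taf7, Pcdh20, Myf6, Dpt, Csf1r and others outside this rule were named in addition, after their values were seen. No sequence is printed.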

Additional observations from a re-analysis of the deposited data

How the results depend on the processing

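The count of clustered protocadherins that fell was 12 to 16 across the fits that left out 1 library, where 6.74% to 12.5% of tested genes fell, against 16 with all libraries, and 0 rose in any of them. DESeq2, limma-voom and the fit with the replicate block called the same 16. Of 357 values of member fold changes under the alternatives, 340 kept their direction and side of the threshold, 15 kept their direction but lost the call, and 2 reversed (Pcdha11 without library GFP 1, in a range of −0.43 to 0.048 over the fits that left out 1 library, and Pcdhb15 without library GFP 3, in a range of −0.14 to 0.17). Pcdhb19 had an edgeR adjusted p of 0.0514 with offsets for length and GC content and 0.0513 with thinned counts. Ndufa2 reversed to −0.026 with offsets for length and GC content and to −0.027 with these and the replicate block, and Ctcf, with no call in any of these fits, ran from −0.098 to 0.0061 when 1 library was left out. Over all genes 1549 were higher and 1655 lower. With the replicate block these were 2942 and 3071, and with the block and the offsets 2925 and 2903. Leaving out 1 library gave 634 to 1476 higher and 843 to 1558 lower. The block rests on a pairing seen in the data, changed no call among the clustered protocadherins, and leaves fewer residual degrees of freedom. The beta genes with under 20 reads per library in HA-NUR77 have wide counting error, and the median log2 fold change of the tested members stayed between −0.65 and −0.62 under the other scalings.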
